A study of Mus musculus with 4 samples.

Results

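The mRNAs of the BTG and TOB antiproliferative adaptors were followed in an RNA immunoprecipitation of the RNA-binding protein Cpeb4. The members are Btg1, Btg2, Btg3, Tob1 and Tob2, chosen by gene symbol, each with 1 probe set: 5 of 25206 probe sets in all. The rule used symbols and not values, but earlier results of these data were known when the members were chosen. All RNA came from erythroblasts, immature red blood cells, taken with anti-Ter119 magnetic beads from mouse fetal livers at embryonic day 14.5. No strain or genotype is given in the labels, and whether livers were pooled is not stated. Cpeb4 was immunoprecipitated (IP) in 2 biological replicates, 1 array was run on RNA precipitated with rabbit IgG, and 1 array on total input RNA, with no antibody. Whether the IgG and input arrays share a cell preparation with either IP replicate is not stated. The comparisons ask which of these mRNAs came down with Cpeb4 above the IgG background and above their share of the input.

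BTG and TOB proteins share an N-terminal BTG domain that binds the deadenylases Cnot7 and Cnot8 of the CCR4-NOT complex, which shortens the poly(A) tails of mRNAs. Tob1 and Tob2 also carry motifs for the cytoplasmic poly(A)-binding protein, and TOB proteins are known to link deadenylases to mRNAs bound by proteins of the CPEB family, to which Cpeb4 belongs. The family is best known for slowing cell proliferation, and Btg2 is a classic target of p53. What is measured here is the members' own mRNA in the precipitates, not the proteins.

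Values are deposited log2 expression values, and differences are IP minus control on that scale, so that 1.00 is a 2-fold difference. A gene rose or fell where limma, fitted over 13911 tested genes, gave an adjusted p below 0.05. All 5 members were tested. The spread in this test comes from the 2 IP arrays, since each control is a single array and is assumed to vary like them. Log2 values of different probe sets cannot be ranked against each other, so each member is compared only with itself across arrays. Sums over a marker list likewise follow that list from array to array.

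The IgG array had a narrower range than the others, with an SD over all probe sets of 1.74, against 2.05 to 2.13 for the other 3 arrays. The IP replicates had exactly the same value at 3032 of the tested genes, Tob1 among them. Such genes have no spread of their own and were given the common prior spread. The antibody target Cpeb4 rose by 0.50 over IgG and by 0.52 over input (limma adjusted p = 0.0279 and 0.0481). Erythroid markers were read as a check of the labelled cells: all 10 on the array passed the filter, at 6.72 (Hbb-bs in IgG) to 12.20 (Slc4a1 in input). Against input 5 of the 10 fell and none rose, with a median of -0.48: Klf1 by -1.71, Gata1 by -1.40, Hbb-bs by -1.33, Tspo2 by -1.12 and Epor by -0.60, the first 4 at least 2-fold in both IP replicates. The other 5, among them Slc4a1 (-0.06), Alas2 (-0.10) and Hbb-b1 (0.34), did not pass. Against IgG 1 of 10, Tspo2, fell and none rose. Of all tested genes 13.8% fell and 9.38% rose against input, and 19.7% fell and 35.0% rose against IgG. The erythroid counts moved with the scaling of the arrays. Quantile normalization again gave 1 up and 3 down against input and 2 up and 4 down against IgG. Centring on array medians gave 0 up and 6 down, and 6 up and 0 down. For all tested genes the former gave 1268 up and 1377 down against input, and 4308 and 4065 against IgG. The latter gave 1674 and 2950, and 7931 and 2005. The log2 of the summed erythroid level was 14.30 in input, 13.95 in IgG and 14.05 and 14.05 in the IP.

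The 5 members did not move as a group. Btg2 and Tob1 rose over IgG, Btg3 fell against input, and Btg1 and Tob2 passed neither test. Against IgG, 2 of 5 members rose and none fell, where 35.0% of all tested genes rose and 19.7% fell. Against input, 1 of 5 fell and none rose, where 13.8% of all tested genes fell and 9.38% rose. None rose over both controls or fell against both, as 7.03% and 2.07% of all tested genes did. By size alone, 0 of 5 members were at least 2-fold above or below a control in both IP replicates. Of all tested genes, 18.6% were so above and 6.24% below IgG, and 4.04% above and 5.18% below input. The median difference of the members was 0.01 from IgG and -0.05 from input, and that of all tested genes was 0.08 and -0.01.

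**Figure D1:**
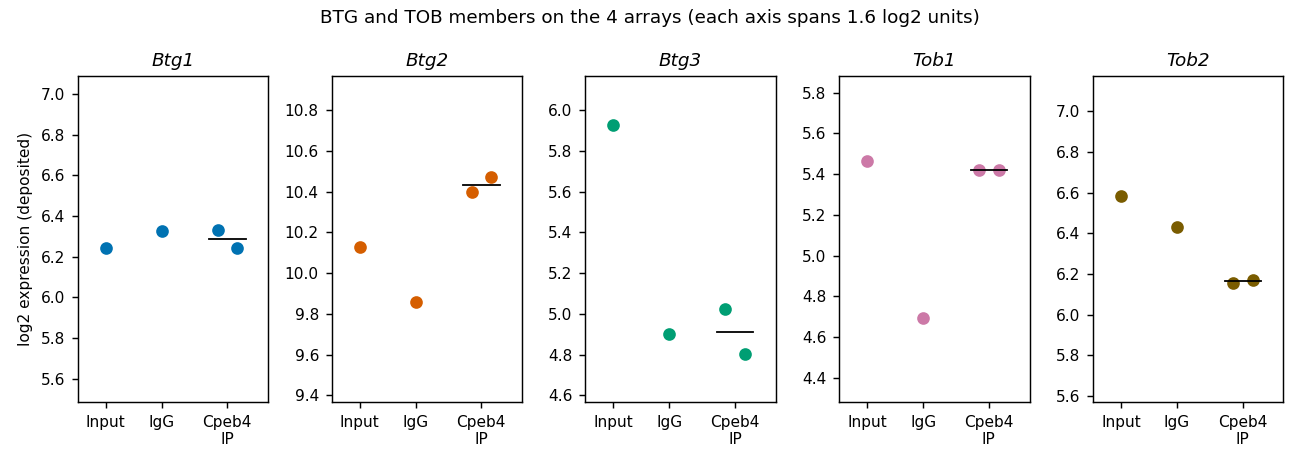
Deposited log2 expression of each member on the input array, the IgG array and the 2 Cpeb4 IP arrays (1 point per array; the bar is the IP mean). Every panel spans the same width of 1.6 log2 units around its own middle, so distances between arrays can be compared across panels but heights cannot. Btg2 is the only member with both IP points above both controls and Tob2 the only one with both below them.

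Btg2, the p53-responsive member, had its highest values in the Cpeb4 IP. Its value was 10.40 and 10.47 in the IP replicates, 9.86 in IgG and 10.13 in input. Both IP arrays therefore stood above both controls, with IgG lowest. Over IgG it rose by 0.58 with a standard error of 0.12 (1.49-fold, limma adjusted p = 0.0203). Over input it was 0.31 higher with a standard error of 0.12 (1.24-fold) and did not pass (limma adjusted p = 0.165). The gap between the IP replicates was 0.08, smaller than either difference. Its difference from IgG was at percentile 68.1 of all tested genes and that from input at percentile 81.6. The rise over IgG missed the threshold when the arrays were quantile-normalised again (0.28, limma adjusted p = 0.0551) and in plain limma, where ties count as a spread of 0 (0.58, limma adjusted p = 0.0536). The difference from input passed with eBayes set to trend and robust together (limma adjusted p = 0.0174) and with a common spread per twentieth of expression (adjusted p = 0.000689).

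Beside Btg2, megakaryocyte, neutrophil, hepatocyte, macrophage and endothelial markers also had higher summed levels in the IP than on either control array. A sum follows the highest values of its list. The median difference from IgG was 0.99 for megakaryocyte, 0.67 for neutrophil and 0.43 for hepatocyte markers. It was 0.07 for macrophage and -0.08 for endothelial markers, and 0.08 for all tested genes. Vcam1 (-0.37) and C1qb (-0.13) of macrophages and Cdh5 (-0.21) of endothelium lay below IgG without passing. Of 7 tested megakaryocyte markers, 5 rose over IgG and 6 over input. Of 8 neutrophil markers, 4 and 7 rose, of 6 hepatocyte markers 3 and 3, and of 7 macrophage markers 3 and 4, with 1 macrophage marker, C1qa, falling against IgG. Of all tested genes 35.0% rose over IgG and 9.38% over input. The log2 of the summed megakaryocyte level was 9.97 in input, 10.89 in IgG and 11.76 and 11.89 in the IP. The neutrophil sum was 9.54, 10.81, 11.41 and 11.41 on the same arrays, the hepatocyte sum 6.89, 7.67, 8.80 and 9.001, and the macrophage sum 7.66, 8.17, 8.77 and 8.99. Vwf, a clotting factor made by megakaryocytes and endothelial cells, rose by 2.84 over IgG and by 3.05 over input. After quantile normalization again, 3 megakaryocyte markers rose and 1 fell against IgG, and 4 neutrophil markers rose and 3 fell. Hepatocyte markers then gave 5 up and 0 down, and macrophage markers 2 up and 0 down. Of the 13911 tested genes 4308 then rose and 4065 fell. With arrays centred on their medians 7 megakaryocyte, 7 neutrophil, 6 hepatocyte and 4 macrophage markers rose over IgG and none of these lists had a fall. Of all tested genes 7931 rose and 2005 fell under centring. None of 2 tested lymphoid markers, Il7r and Cd79b, passed against either control. The endothelial sum was 6.48 in input, 6.95 in IgG and 7.54 and 7.32 in the IP. Of 4 endothelial markers 1, Pecam1, rose against each control, and Lyve1 fell against IgG. The macrophage markers C1qc, Cd163 and Mrc1 lay below the level needed for testing, as did Fgb of hepatocytes. No value of a log2 table is 0, so absence cannot be read from it. The part of these markers in the Btg2 result was not tested. In precipitates of bulk RNA, more cells of a type, more RNA per cell and more of an mRNA brought down cannot be told apart.

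Tob1, one of the 2 members that also bind the poly(A)-binding protein, had a low IgG value and otherwise stood at one level. Its value was 5.42 in both IP replicates, 4.69 in IgG and 5.47 in input. The IgG array was thus the one that stood apart, and the IP was close to input. It rose by 0.73 over IgG with a standard error of 0.13 (1.65-fold, limma adjusted p = 0.0258). From input it differed by -0.05 and did not pass (limma adjusted p = 0.922). Because its IP values were tied, that standard error is the prior's, not one measured on Tob1. The rise over IgG was called in all 8 alternatives with a test, with differences from 0.73 to 1.05 (limma or common-spread adjusted p = 0.00194 to 0.0258). Among these is the looser threshold of 0.1, which could not remove a call. Input was 1.71-fold above IgG for Tob1, with 1 array each and no test.

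Tob2, its closest relative in the family, had both IP values below both controls. Its value was 6.16 and 6.17 in the IP replicates, 6.43 in IgG and 6.58 in input. The IP replicates differed by 0.01, so the order from low to high was IP, IgG, input. The difference was -0.27 from IgG (limma adjusted p = 0.128) and -0.42 from input (limma adjusted p = 0.0789), each with a standard error of 0.12, and neither passed. Tob2 was 1.20-fold higher in IgG and 1.33-fold higher in input than in the IP. Quantile normalization again moved the difference from IgG to -0.86 (limma adjusted p = 0.0124), and centring each array on its median moved it to 0.06 (limma adjusted p = 0.548). Against input the sign was negative under every alternative run, and 5 of 8 alternatives with a test called it. These include the looser threshold of 0.1, which the adjusted p of 0.0789 was bound to pass. They also include plain limma, which called 1354 unchanged genes in the simulation described below.

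Btg3, a member known for binding the cell cycle factor E2F1 as well as the deadenylases, was highest in input. Its value was 5.02 and 4.80 in the IP replicates, 4.90 in IgG and 5.93 in input. The IgG value lay between the IP replicates, and input stood above all 3 precipitates. It fell by 1.02 against input with a standard error of 0.15 (2.02-fold lower, limma adjusted p = 0.0204) and differed by 0.01 from IgG (limma adjusted p = 0.986). The replicates differed by 0.22, and their differences from input were -0.91 and -1.13, so that IP replicate 2 alone was past 2-fold. IgG was lower than input by a like amount (-1.03, 1 array each, no test). Against input Btg3 was at percentile 6.2 of all tested genes. Of 10 erythroid markers 5, Klf1, Gata1, Hbb-bs, Tspo2 and Epor, fell against input too, as given above. The other 5, among them Hbb-b1 (0.34), Slc4a1 (-0.06) and Alas2 (-0.10), did not pass. After quantile normalization again 1 erythroid marker rose and 3 fell against input. The part of these markers in the Btg3 result was not tested. The fall missed the threshold after quantile normalization again (-0.88, limma adjusted p = 0.0694) and in plain limma (adjusted p = 0.131).

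Btg1, named for a chromosome translocation of B-cell leukaemia, was nearly level over the arrays. Its value was 6.33 and 6.24 in the IP replicates, 6.32 in IgG and 6.24 in input. All 4 values lay within 0.09, which was also the gap between the IP replicates, and IP replicate 2 had exactly the input value. The difference was -0.04 from IgG (limma adjusted p = 0.838) and 0.04 from input (limma adjusted p = 0.917), with a standard error of 0.12. Its difference from IgG moved with the scaling of the arrays. After quantile normalization again its difference from IgG was -0.63 and called (limma adjusted p = 0.0258), and with arrays centred on their medians it was 0.28 and not called (limma adjusted p = 0.0641). Btg4, the family gene outside the chosen members, lay below the level needed for testing, at 3.37 and 3.42 in the IP, 3.43 in IgG and 3.42 in input.

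**Figure D2:**
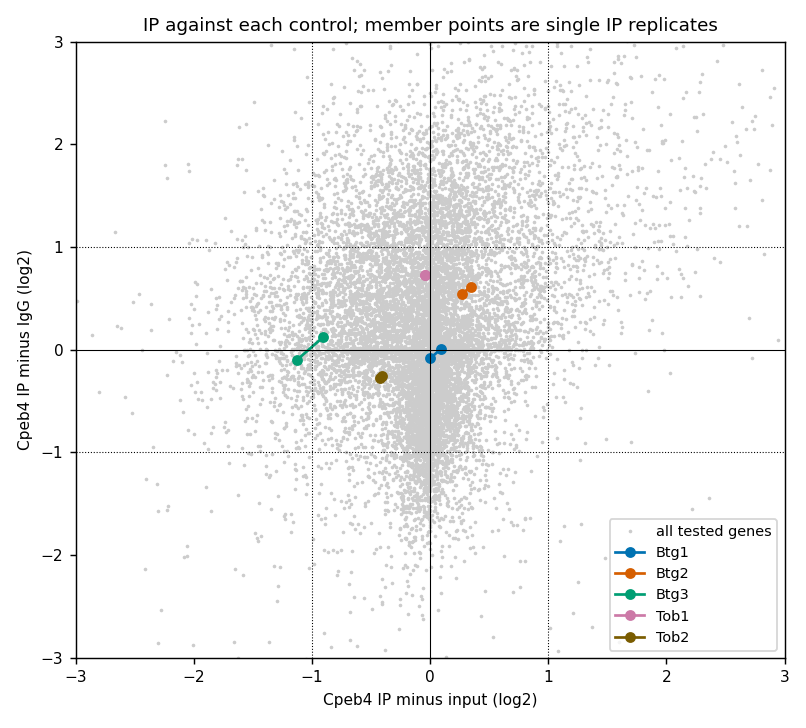
Cpeb4 IP minus input (x axis) against Cpeb4 IP minus IgG (y axis), both on the log2 scale; grey points are the tested genes by their IP mean and coloured points are members, with a line joining the IP replicates of 1 gene. Dotted lines mark 2-fold; 168 genes lie outside the axes, which end at 3. All members sit inside the 2-fold lines except Btg3 replicate 2, at -1.13 from input, and both axes use the same IP arrays, so the axes are not independent.

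The IgG and input arrays were compared by size alone. IgG was below input for 4 of 5 members: by -1.03 for Btg3, -0.77 for Tob1, -0.27 for Btg2 and -0.15 for Tob2. For Btg1 it was 0.08 above. Only Btg3 was at least 2-fold lower in IgG, where 23.9% of all tested genes were. The median over the members was -0.27 and over all tested genes -0.15. For Btg2 and Tob2 the sign turned after quantile normalization again, to 0.14 and 0.59, and for Btg1 it turned with arrays centred on their medians, to -0.27.

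**Figure D3:**
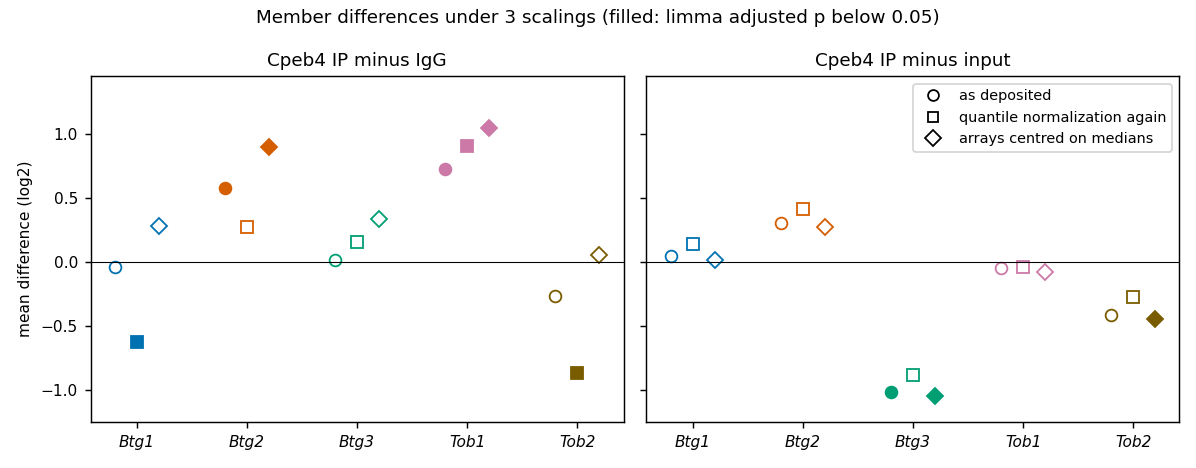
Mean Cpeb4 IP minus IgG (left) and minus input (right) of each member on the log2 scale, with values as deposited (circles), after quantile normalization again (squares) and with arrays centred on their medians (diamonds); filled symbols passed limma at an adjusted p below 0.05. Against IgG, Btg1 runs from -0.63 to 0.28 and Tob2 from -0.86 to 0.06, while Tob1 stays between 0.73 and 1.05; against input each member keeps its sign.

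For each member the 3 tested genes with the most similar profile were found by Euclidean distance over the 4 arrays, after each gene was centred on its own mean. Nearest to Btg2 were Rpl4, a ribosomal protein gene (distance 0.02), Dnajc18 (0.03) and R3hdm1 (0.06). Rpl4 differed by 0.57 from IgG and 0.31 from input, the values of Btg2 to within 0.02. Nearest to Tob1 were Polr1e, an RNA polymerase I subunit (0.02), Tnfrsf10b, a death receptor (0.02), and Mllt3 (0.03). Nearest to Btg3 were Trafd1 (0.04), H2-Ke6 (0.05) and Fbxo25 (0.05), to Tob2 Lin7b (0.02), Gm15628 (0.03) and Cpped1 (0.04), and to Btg1 Slc34a3 (0.01), Trim21 (0.02) and Hoxd4 (0.02). With 4 arrays and 13911 genes, close profiles are a description and say nothing of how the genes are controlled.

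Both deadenylase subunits that BTG and TOB proteins bind rose over IgG. Cnot7, one of these nucleases, was at 9.004 and 9.33 in the IP, 7.61 in IgG and 8.26 in input. Its rise was 1.55 over IgG and 0.91 over input (limma adjusted p = 0.00495 and 0.0374). Cnot8, its paralogue, was at 6.14 and 6.36 in the IP, 5.69 in IgG and 6.21 in input. The rise over IgG was 0.56 (limma adjusted p = 0.0381), and it differed by 0.04 from input (limma adjusted p = 0.948). After quantile normalization again neither was called against IgG, at 0.86 and 0.19. Of 11 CCR4-NOT subunits 8 rose over IgG and none fell, where 35.0% of all tested genes rose and 19.7% fell. Cnot9 (2.01) and Cnot6 (1.94) were highest and Cnot3 (-0.06) and Cnot10 (0.36) lowest. After quantile normalization again 4 subunits rose and 3 fell against IgG, among the latter Cnot3 and Cnot10. Of the 13911 tested genes 4308 then rose and 4065 fell. With arrays centred on their medians all 11 subunits rose over IgG, where 7931 of the 13911 tested genes rose and 2005 fell. Against input 2 of 11, Cnot7 and Cnot6 (0.89), rose and none fell, where 9.38% of all tested genes rose and 13.8% fell. Cnot2 (-0.64) and Cnot10 (-0.50) were lowest. Centring on array medians gave 3 subunits up and 4 down against input, where 1674 of all tested genes rose and 2950 fell. A further quantile normalization gave 2 subunits up and 1 down, where 1268 of all tested genes rose and 1377 fell. The median of the subunits was 0.99 from IgG and 0.04 from input, as deposited.

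Other partners and growth genes were counted in lists, to be read against all tested genes, of which 35.0% rose and 19.7% fell against IgG, and 9.38% rose and 13.8% fell against input. Of 5 tested genes of poly(A)-binding proteins and their partners, all 5 rose over IgG, and 2, Pabpc1 (1.02) and Paip1 (0.75), rose over input. Over IgG, Paip1 (2.32) and Paip2 (1.23) were highest and Pabpc1 (0.41) and Pabpn1 (0.72) lowest, and 3 of 5 were still called after quantile normalization again. Of 7 other genes listed with the poly(A) nucleases, whose activity was not measured here, 3 rose over IgG and 1, Noct (-0.72), fell. Pde12 (2.05) and Angel2 (0.87) were highest and Angel1 (-0.28) was second lowest. Of these 7 genes 1 rose and 2 fell against IgG once the arrays were quantile-normalised again, where 4308 of all 13911 tested genes rose and 4065 fell. Against input Pan2 fell by 1.12, and Noct (-0.41), Pan3 (0.41) and Parn (0.18) did not pass. Of 6 other protein partners 3 rose over IgG, Smad4 by 0.95, Smad2 by 0.66 and Prmt1 by 0.64, and Smad1 (0.33) and Hoxb9 (-0.22) did not pass. None of these 6 was called against input, where they ran from -0.03 for Prmt1 to 0.30 for Smad4.

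Among 15 tested genes listed as other adaptors of the same deadenylase complex, 8 rose over IgG and 2 fell, where 35.0% and 19.7% of all tested genes did. Over input 5 rose, where 9.38% did. The highest over input were Zfp36 (1.71) and Zfp36l1 (1.30), which bind AU-rich elements, and the lowest, Tnrc6c (-0.45) and Cpeb3 (-0.41), did not pass. Over IgG, Rc3h2 rose by 1.84 and Pum2 by 1.47, and Samd4 fell by 0.50 and Nanos1 fell by 0.44. After quantile normalization again 4 rose and 6 fell against IgG, and 6 rose and none fell against input. With arrays centred on their medians 13 rose and none fell against IgG, and 8 rose and 2 fell against input. For all 13911 tested genes, quantile normalization again gave 4308 up and 4065 down against IgG, and 1268 and 1377 against input. Centring gave 7931 and 2005 against IgG, and 1674 and 2950 against input.

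FoxO factors, regulators of p53 and targets of both were followed in a further list. Of 19 tested, 5 rose and 2 fell against IgG, where 35.0% and 19.7% of all tested genes did, and 5 rose and 1 fell against input, where 9.38% and 13.8% did. Ccng2, a cyclin that FoxO factors induce, rose by 2.14 over IgG and by 1.01 over input, and Ccng1, a p53 target, rose by 1.80 over IgG. Mdm2, the ubiquitin ligase for p53, fell by 1.03 against IgG, and Sesn2 fell by 0.42. Cdkn1a, the p53-induced inhibitor of cyclin-dependent kinases, fell by 0.89 against input and Foxo3 (-0.70) did not pass, while Trp53inp1 rose by 0.89. The counts against IgG became 5 up and 5 down after quantile normalization again, and 16 up and 1 down with arrays centred on their medians. For all 13911 tested genes these counts were 4308 and 4065, and 7931 and 2005. Against input the list gave 3 up and 2 down after quantile normalization again, where 1268 of all tested genes rose and 1377 fell. Centring gave 5 up and 2 down against input, where 1674 of all tested genes rose and 2950 fell.

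Of 11 G1 cyclins, kinases and retinoblastoma proteins, which carry the G1 step that BTG and TOB proteins restrain, 7 rose and 1 fell against IgG, and 1 rose and 3 fell against input. Of all tested genes 35.0% rose and 19.7% fell against IgG, and 9.38% rose and 13.8% fell against input. Ccnd2 rose by 2.74 and Cdk6 by 2.05 over IgG, Ccnd1 fell by 0.61, and Ccnd3 (0.14) did not pass. Against input Cdk6 rose by 1.99, Cdk2 fell by 1.00 and Ccnd3 fell by 0.81, and Ccnd2 (0.44) did not pass. After quantile normalization again 6 rose and 3 fell against IgG, and with arrays centred on their medians 10 rose and none fell. Over all 13911 tested genes 4308 rose and 4065 fell in the former, and 7931 rose and 2005 fell in the latter.

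**Figure D4:**
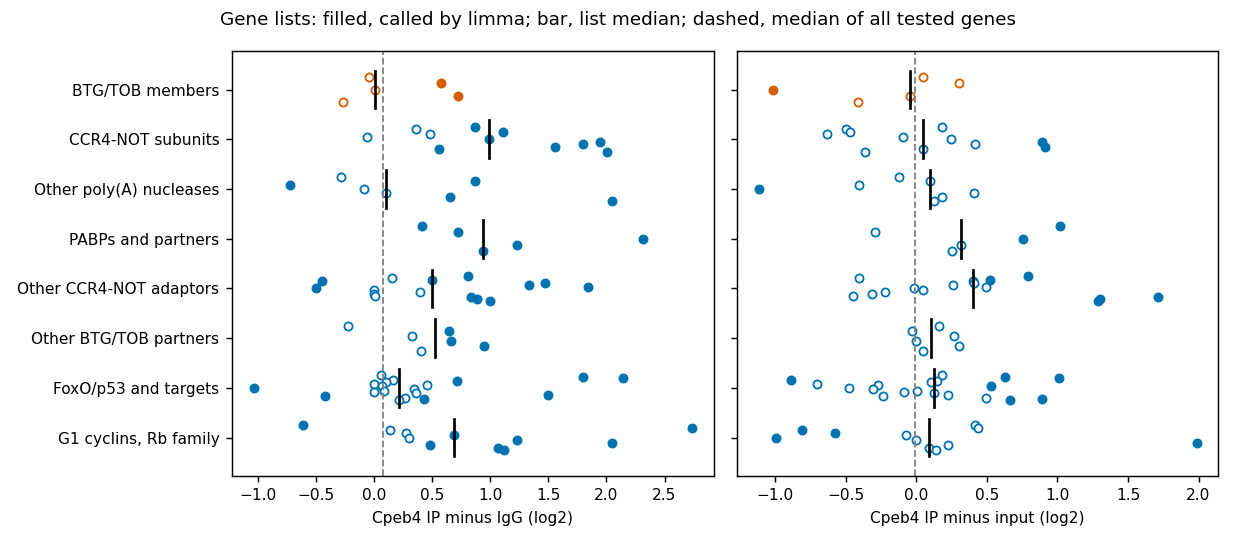
Cpeb4 IP minus IgG (left) and minus input (right) on the log2 scale, 1 point per tested gene, for the BTG and TOB members and 7 lists of partners and growth genes. Filled points passed limma at an adjusted p below 0.05, bars are list medians and the dashed line is the median of all tested genes (0.08 and -0.01). The members' median against IgG is 0.01, and that of the CCR4-NOT subunits is 0.99, as deposited. After quantile normalization again these medians were 0.16 and 0.35, and with arrays centred on their medians 0.33 and 1.31. The difference between these lists was not tested.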

How the data were processed

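The values deposited by the authors are on the log2 scale, with 1 value for each probe set on each array. Per the submitters' processing notes they come from RMA in the affy package. Versions, settings and the genome build are not given in the sources used here. Probe sets carry Entrez gene numbers, and 23185 of 25206 had 1 symbol in the platform annotation and 2021 none. No sequence was used. Named genes entered the test from the 40th percentile of their 4-array mean upward (log2 3.84), which left 13911. They were fitted with limma 3.58.1 in R 4.3.3 over 3 groups (1 residual degree of freedom), with Benjamini-Hochberg adjustment. Genes whose IP replicates were tied (within 1e-09) got 0 residual degrees of freedom, so that their spread was the prior of the untied genes (a prior SD of 0.11 with 3.07 degrees of freedom).

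In a simulation of Cpeb4 IP against IgG, with 13911 genes and such ties, this test called 15 of 13711 unchanged genes and recovered 44 of 50 genes changed by 1 log2 unit and 8 of 50 changed by 0.5. Plain limma called 1354 unchanged genes, and a common spread per twentieth of expression called 56. The simulation gave all arrays and all genes the same spread (an SD of 0.17) and placed the ties at random. It therefore did not examine whether a control varies like the IP, or how the test does where the spread differs between genes. It also left 13711 of 13911 genes unchanged, whereas against IgG 4866 genes rose and 2738 fell in the data. The adjustment for multiple tests depends on that share, so the simulated counts of false calls and recovered genes need not hold for the data. In the data the common spread per twentieth of expression ran from 0.07 to 0.20.

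The members and lists were chosen with earlier results of these data known. Named genes were the members, Btg4, Cpeb4, Cnot7, Cnot8, the 2 highest and 2 lowest genes of each list per control, and the 3 most similar genes per member; Vwf, Slc4a1, Alas2 and other genes named beside marker counts were chosen after their values were seen. The alternatives were the filter, the scaling, the treatment of ties, the prior, the thresholds and leaving out each IP replicate. The number of arrays limits the precision.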

Additional observations from a re-analysis of the deposited data

How the results depend on the processing

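With 1 array per control, no alternative replaces a control, and with 1 IP replicate left out there is no residual degree of freedom, so those settings give differences only. No paired analysis was possible because the controls are single arrays with no replicate number in the labels. Against input each member kept its sign in all settings run, except Btg1, which was 0.00 in IP replicate 2; the calls did not hold throughout. For the changes below the cause was not tested, apart from centring, which adds 0.32 to every IP minus IgG difference and -0.35 to every IgG minus input difference and so leaves the order of genes as it was.

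Quantile normalization again gave, against IgG, -0.63 for Btg1 and -0.86 for Tob2, both called, and 0.28 for Btg2, not called (1 member up, 2 down); against input, -0.88 for Btg3, not called (0 members down); and for IgG minus input, 0.77 for Btg1, 0.14 for Btg2, -0.95 for Tob1 and 0.59 for Tob2. Centring gave, against IgG, 0.28 for Btg1 and 0.057 for Tob2, with 1 member at least 2-fold higher; against input, -0.45 for Tob2, called (2 members down); and for IgG minus input, -0.27, -0.63, -1.38, -1.13 and -0.50 for Btg1, Btg2, Btg3, Tob1 and Tob2, with 2 members at least 2-fold lower. Plain limma did not call Btg2 (0.58) and called Tob2 (-0.27) against IgG, 1 member up and 1 down; against input it called Tob2 (-0.42) and not Btg3 (-1.02). Against input Tob2 (-0.42) was also called with the 60th percentile filter, a common spread and an adjusted p below 0.1, which gave 2 members down each, and Btg2 (0.31) with a common spread and with trend and robust, 1 member up each. At 1.5-fold 1 member was higher than IgG, 1 lower than input, and 2 lower in IgG than in input; at 4-fold 0 were. Leaving out 1 IP replicate moved Btg1 from -0.083 to 0.0054 and Btg3 from -0.10 to 0.12 against IgG, and the members at least 2-fold lower than input from 0 to 1.

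Over all tested genes, 64.0% of calls against IgG were upward (4866 up, 2738 down), against 51.5% after quantile normalization again (4308 and 4065) and 79.8% with centring (7931 and 2005). Genes that fell against IgG numbered 5276 with no filter and 1114 with the 60th percentile filter. Against input, where 1305 rose and 1916 fell, a common spread gave 2046 and 3106, and centring gave 2950 that fell. At least 2-fold below IgG were 868 genes, against 1407 with no filter, 402 with the stricter filter, 1305 after quantile normalization again and 440 with centring. At least 2-fold below input were 721, and 472 after quantile normalization again. IgG was at least 2-fold above input for 1103 genes and below for 3329; the former were 1852 with no filter, 505 with the stricter filter and 514 with centring, and the latter 1936 after quantile normalization again. Below both controls were 70 genes, against 107 to 111 with 1 IP replicate left out. At 1.5-fold and 4-fold, 4167 and 574 genes were above IgG (2588 at 2-fold), 2172 and 119 below it, 1226 and 102 above input (562), 1916 and 42 below it, 828 and 43 above both (346) and 219 and 13 below both; IgG stood above input for 2623 and 143 and below for 5039 and 748.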
